A study of Mus musculus with 8 samples.

Results

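The interferon response genes described here are 33 genes that cells switch on, or use, when they sense interferon, taken as a list of gene symbols, with every array probe of each symbol counted as a member. The deposited table held 55 probes for 31 of the 33 genes, among 25697 probes in all. The platform annotation used here gave no probe for Ifi44 or Gbp6. Testing required a signal above background (detection p under 0.05) on 4 or more of the 8 arrays, and 39 member probes of 25 genes met this, among 11494 tested probes. Total liver RNA came from male mice aged 13 weeks on a C57BL/6 background, as 4 wild type samples and 4 Bgn knockout samples (BGN knockout in the labels). Bgn encodes biglycan, a small leucine-rich proteoglycan of the extracellular matrix. Each sample was run on 1 Illumina bead array. The labels do not say that the samples of a genotype came from separate mice, so p-values measure only the spread between these samples, which may be technical. They also give neither the deleted part of Bgn, the origin of the knockout line nor any treatment. The comparison asks how these transcripts differ between the livers of the 2 genotypes.

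Type I interferons signal through a receptor and the kinases Jak1 and Tyk2 to a complex that holds STAT2 and IRF9 and binds an element with repeated GAAA (the interferon-stimulated response element). Interferon-gamma signals through another receptor, acts on genes with a palindromic element of the form TTCNNNGAA (the gamma-activated site), and raises Irf1, a transcription factor that binds GAAA repeats in turn. The targets include enzymes that sense or degrade viral RNA, GTPases that attack intracellular microbes, and proteasome subunits that cut peptides for presentation. In liver, hepatocytes, Kupffer cells and endothelial cells all respond to interferons.

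Promoter sequence was examined because the list was made by name and function and not by sequence. RefSeq promoters (assembly GRCm38.p6, 250 bases before to 50 after each start) were found for 26 of the 33 genes, as 30 promoters. The motif GAAA-NN-GAAA, on either strand (TTTC-NN-TTTC on the other), was present in 15 of these 30 promoters, 50%, against 3.44% of all 32851 promoters in the table. The palindrome TTCNNNGAA was present in 7 of 30, 23.3%, against 8.30% of all promoters. The matches may overlap each other, and a match is a description of letters, not a binding site. The 250 upstream bases of 4 promoters are shown because their genes had the smallest p-values of their role groups among those with a match, and the matches to either motif are in capitals. They are those of Irf1 (chr11:53769764-53770013, plus strand), Bst2 (chr8:71537473-71537722, minus strand), Gbp2 (chr3:142620413-142620662, plus strand) and Ifit2 (chr19:34550444-34550693, plus strand).
Irf1: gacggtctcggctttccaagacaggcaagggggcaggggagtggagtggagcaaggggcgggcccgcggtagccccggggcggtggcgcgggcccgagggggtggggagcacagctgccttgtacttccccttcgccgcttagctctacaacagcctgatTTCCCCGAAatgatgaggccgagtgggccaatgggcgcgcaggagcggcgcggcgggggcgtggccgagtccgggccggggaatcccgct
Bst2: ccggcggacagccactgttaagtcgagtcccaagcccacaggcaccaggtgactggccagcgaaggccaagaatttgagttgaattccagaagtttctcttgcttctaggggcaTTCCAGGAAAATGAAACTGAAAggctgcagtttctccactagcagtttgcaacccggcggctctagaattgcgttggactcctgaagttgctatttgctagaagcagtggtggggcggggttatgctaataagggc
Gbp2: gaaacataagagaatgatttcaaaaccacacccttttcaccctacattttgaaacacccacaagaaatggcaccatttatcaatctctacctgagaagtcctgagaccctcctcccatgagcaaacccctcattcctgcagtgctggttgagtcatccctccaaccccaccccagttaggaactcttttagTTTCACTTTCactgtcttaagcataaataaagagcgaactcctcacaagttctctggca
Ifit2: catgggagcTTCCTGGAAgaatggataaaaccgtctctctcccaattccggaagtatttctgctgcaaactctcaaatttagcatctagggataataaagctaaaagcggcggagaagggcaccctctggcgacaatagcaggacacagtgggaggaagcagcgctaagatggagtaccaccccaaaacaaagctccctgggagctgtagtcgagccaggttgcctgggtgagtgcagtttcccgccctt

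In these windows Irf1 and Ifit2 held the palindrome and not the spaced GAAA repeat, Gbp2 held the repeat, and Bst2 held an overlapping run of both. The bases around the GAAA-NN-GAAA matches of 5 further members, with the matches in capitals, are shown because adjacent repeats overlap in several of them. The stretch of Isg15 is at chr4:156200869-156200902 (minus strand), that of Irgm1 at chr11:48871429-48871456 (minus), that of Igtp at chr11:58199516-58199537 (plus), that of Gbp3 at chr3:142559993-142560020 (plus) and that of Ifit3 at chr19:34583367-34583422 (plus).
Isg15: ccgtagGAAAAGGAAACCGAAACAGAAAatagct
Irgm1: tttcaaGAAATAGAAACCGAAActgatt
Igtp: ggaactGAAACTGAAAgctgtt
Gbp3: acacagTTTCAGTTTCTATTTCccagat
Ifit3: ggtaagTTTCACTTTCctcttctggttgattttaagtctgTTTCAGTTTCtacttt
Isg15 held 3 overlapping matches, Irgm1 and Gbp3 held 2 that overlap, Ifit3 held 2 apart from each other, and Igtp held 1. Neither motif was found in the promoters of 8 members, Ifi44, Ifi47, Irf7, Irf9, Oasl1, Oasl2, Psmb9 and Xaf1.

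The median deposited intensity lay between 141 and 164 units per array, and 11352 to 11910 probes were detected. Bgn itself had 2901 to 4944 intensity units on the wild type arrays and 169 to 203 on the knockout arrays, which fits the labelled genotypes. Alb, Apoa1, Ttr and Cps1 of the 5 hepatocyte markers were detected on all 8 arrays, and the markers had a summed level of 80980 to 87910 in wild type and 82370 to 88730 in knockout livers. Skeletal muscle markers were high on wild type replicate 4, Bgn knockout replicate 2 and, less so, Bgn knockout replicate 1 (summed level 24280, 33220 and 6894, against 139 to 179 on the other arrays). These arrays stand apart in that respect. The Irf1 call, the member median, the count of groups that do not overlap, Gbp2, Igtp and Usp18 are also given without the 2 highest. The number of arrays limits the precision.

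Irf1 was the member with a probe that passed the test: in knockout livers this probe fell 2.08-fold, while the other 3 detected Irf1 probes had log2 changes of -0.59 to -0.85 without passing. The call was lost in 10 of the 19 alternative settings, among them 6 of the 8 that left out 1 array. Of the 39 tested member probes 1 was called lower and 0 higher (limma, Benjamini-Hochberg adjusted p under 0.05 over all tested probes). Of all tested probes 1.10% were called, 0.722% lower and 0.383% higher. At an unadjusted p under 0.05, 7 member probes were lower, 4 of them probes of Irf1, and 1 was higher, against 7.00% and 6.33% of all tested probes. The log2 change was below 0 for 28 of the 39 probes, 71.8%, against 49.1% of all tested probes, and the median log2 change was -0.19, against 0.0051 over all tested probes. It was nearer to 0 in other settings: -0.071 with no filter, -0.080 without background correction, -0.088 with the authors' values and -0.10 with array weights. It was -0.13 without wild type replicate 1, -0.083 without wild type replicate 4, -0.10 without knockout replicate 4 and -0.095 without wild type replicate 4 and knockout replicate 2. Without the Irf1 probes the median was -0.12, with 24 of 35 below 0. Groups did not overlap for 2 probes, both of Irf1 and both lower, against 4.40% of all tested probes lower and 3.66% higher. In whole-liver RNA, fewer cells of a type and less RNA per cell cannot be told apart.

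**Figure D1:**
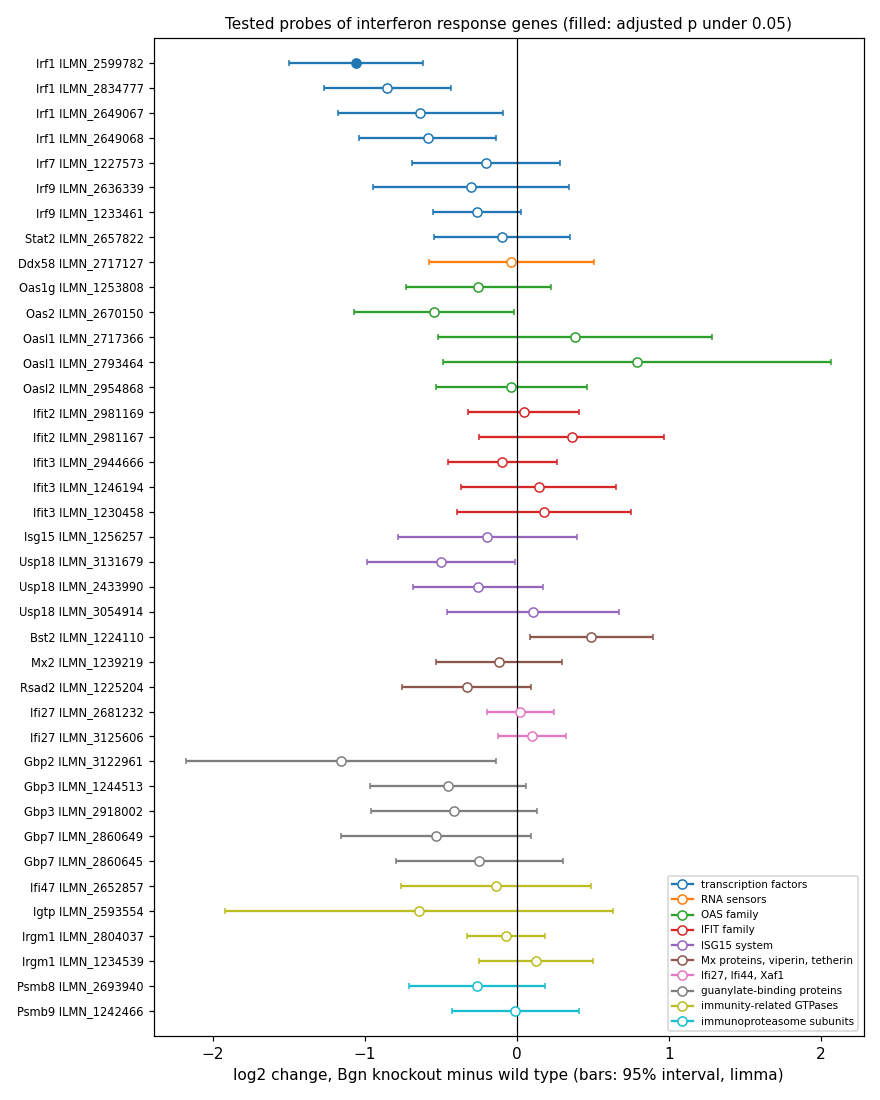
Log2 change (Bgn knockout minus wild type, x axis) of each of the 39 tested probes, ordered and coloured by role, with 95% intervals from limma; the filled point passed the adjusted threshold of 0.05. The Irf1 probe ILMN_2599782 at -1.06 is the filled point, 28 of the 39 points lie below 0, and both Oasl1 probes lie above 0 with the widest intervals on that side.

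Irf1, on chromosome 11, encodes a transcription factor that interferon-gamma raises within its first wave of targets. On probe ILMN_2599782 its normalized log2 intensity was 9.25, 9.30, 9.72 and 9.72 on wild type replicates 1 to 4 and 8.999, 8.37, 8.40 and 7.997 on knockout replicates 1 to 4. Every knockout array lay below every wild type array, with knockout replicate 1 the nearest to wild type. The group means were 9.50 ± 0.26 and 8.44 ± 0.41 (SD, n = 4 each). The log2 change was -1.06 (SE 0.20; 95% interval -1.501 to -0.62; limma adjusted p = 0.0288). In the deposited intensities, before normalization between arrays, the groups overlapped, with 624, 670, 976 and 1069 units in wild type and 768, 538, 460 and 321 in knockout. The array of knockout replicate 1, whose 768 units lay within the wild type range, had the highest median intensity of the 8 arrays, 164 units. Knockout replicate 2, with 538 units on this probe, had a median of 162. The part of array brightness in the overlap was not tested.

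The brightest Irf1 probe, ILMN_2834777, gave log2 values of 10.88, 10.93, 11.51 and 11.44 in wild type and 10.78, 10.23, 10.37 and 9.99 in knockout. These groups did not overlap either, but knockout replicate 1 lay only just below the lowest wild type array. The log2 change was -0.85 (SE 0.19; limma adjusted p = 0.067). The dimmer probes overlapped between groups: ILMN_2649068 had 5.93 to 6.66 in wild type and 5.52 to 6.03 in knockout (log2 change -0.59, SE 0.21; limma adjusted p = 0.249). ILMN_2649067 had 6.07 to 7.15 and 5.57 to 6.18 (-0.64, SE 0.25; limma adjusted p = 0.302). Without background correction these 2 dim probes had -0.21 and -0.25. The remaining Irf1 probe, ILMN_2624100, was not detected on any array. All 4 measured probes thus had the same sign, and which transcripts each one reads was not examined here.

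The call of Irf1 ILMN_2599782 rested on most of the arrays. It was lost without wild type replicate 1, 3 or 4 (limma adjusted p = 0.0539, 0.0866 and 0.0928) and without knockout replicate 2, 3 or 4 (0.117, 0.0947 and 0.05004), while its log2 change stayed between -1.25 and -0.91. It passed without wild type replicate 2 (0.0472) and without knockout replicate 1 (0.00865), and in the latter case ILMN_2834777 passed too (0.0311). Without wild type replicate 4 and knockout replicate 2, the arrays with the most muscle RNA, the log2 change was -0.97 and did not pass (limma adjusted p = 0.272).

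**Figure D2:**
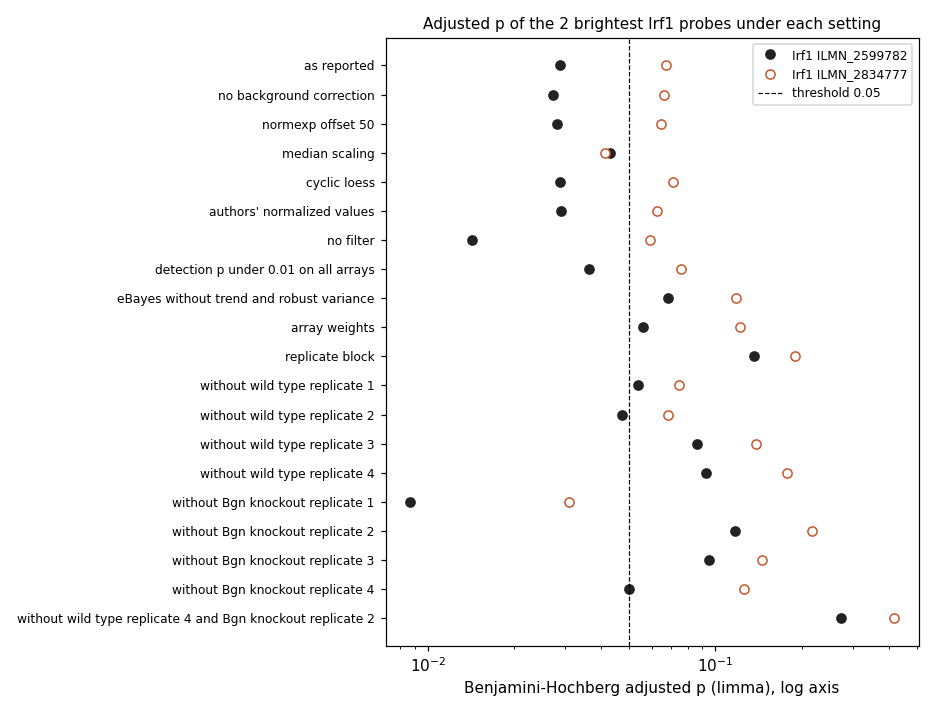
Benjamini-Hochberg adjusted p from limma (log axis) of the 2 brightest Irf1 probes, as reported and under each alternative setting, with the threshold of 0.05 as a dashed line. The filled points (ILMN_2599782) run from 0.00865 without knockout replicate 1 to 0.272 without 2 arrays, and the open points (ILMN_2834777) pass with median scaling and without knockout replicate 1.

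The other transcription factors of the list did not pass. Irf9 and Stat2 encode parts of the complex that type I interferon activates, and Irf7 amplifies the production of type I interferon. Irf9 had 8.94, 8.86, 9.13 and 8.66 in wild type and 8.75, 8.67, 8.59 and 8.53 in knockout on its brighter probe (log2 change -0.26, SE 0.13; limma adjusted p = 0.429). Its dimmer probe had -0.30 (SE 0.30), Irf7 had -0.20 (SE 0.22) and Stat2 had -0.10 (SE 0.21). The Irf9 groups overlapped through wild type replicate 4 alone, which lay below knockout replicates 1 and 2. All 8 tested probes of these 4 factors had values below 0, with a median log2 change of -0.44, and 4 of the 8 belong to Irf1.

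Guanylate-binding proteins, large GTPases that coat and disrupt vacuoles of intracellular microbes, had values below 0 on all 5 tested probes without passing, with a median log2 change of -0.45. Gbp2 had 7.62, 7.49, 8.62 and 9.65 in wild type and 7.27, 6.98, 7.01 and 7.49 in knockout. Wild type replicates 3 and 4 stood far above the other 6 arrays, which lay within 6.98 to 7.62. The log2 change of -1.16 therefore came with a large error (SE 0.45; 95% interval -2.18 to -0.14; limma adjusted p = 0.32), and it was -0.72 without wild type replicate 4 and -0.66 without this array and knockout replicate 2. The other 2 Gbp2 probes were not detected on any array. Gbp3 gave -0.45 (SE 0.24) and -0.42 (SE 0.25) on its probes, and Gbp7 gave -0.53 (SE 0.29) and -0.25 (SE 0.25). The Gbp7 probe at -0.53 was above background on 3 wild type arrays and 1 knockout array. It thus met the filter mainly through wild type, which limits what its sign adds. On both Gbp3 probes knockout replicate 1 lay above at least 2 wild type arrays, and the other 3 knockout arrays lay below all of them. The Gbp genes are close relatives, and probes may read more than 1 of them.

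Immunity-related GTPases, which share that task, had small or variable values. Igtp had 9.42, 9.44, 10.96 and 11.34 in wild type and 10.45, 9.67, 9.29 and 9.19 in knockout (log2 change -0.64, SE 0.54; limma adjusted p = 0.658). As for Gbp2, wild type replicates 3 and 4 were the highest arrays, but wild type replicates 1 and 2 lay within the knockout range. The Igtp value was -0.42 without wild type replicate 3, -0.30 without wild type replicate 4, -0.31 without this array and knockout replicate 2, and -0.11 with array weights. Irgm1, which also takes part in autophagy, had -0.07 (SE 0.12; 95% interval -0.33 to 0.18) on its brighter probe and 0.13 (SE 0.17) on the other. Ifi47 had -0.14 (SE 0.28), with its highest value on wild type replicate 4 (8.41) and its lowest on knockout replicate 4 (7.10). The 2 probes of Iigp1 were detected on 3 arrays and on no array, and were not tested.

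The ISG15 system gave no call. Isg15 is a ubiquitin-like protein attached to other proteins, and Usp18 removes it and also restrains the type I receptor. Usp18 had 8.68, 8.52, 8.89 and 9.38 in wild type and 8.86, 7.90, 8.39 and 8.31 in knockout on its brightest probe. Knockout replicate 1 lay among the wild type arrays, and the other 3 lay below all of them (log2 change -0.50, SE 0.22; limma adjusted p = 0.36). The value was -0.33 without wild type replicate 4 and -0.18 without this array and knockout replicate 2. The 2 dimmer Usp18 probes had -0.26 (SE 0.20) and 0.10 (SE 0.26), so the probes did not share a sign. Isg15 had 7.54 to 8.30 in wild type and 7.07 to 8.39 in knockout (-0.19, SE 0.27; 95% interval -0.79 to 0.40).

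Among the 2'-5'-oligoadenylate synthetase family, which activates RNA decay when double-stranded RNA is present, the probes disagreed in sign. Oas2 had 5.96, 4.99, 5.22 and 5.96 in wild type and 5.15, 4.98, 4.94 and 4.88 in knockout, and it was above background on 3 wild type arrays and 1 knockout array. Wild type replicates 1 and 4 stood above all others (log2 change -0.55, SE 0.24; limma adjusted p = 0.353). The value was -0.16 without background correction, -0.31 with a background offset of 50 and -0.18 with the authors' values. Oasl1, which restrains translation of Irf7 in mice, had 7.33, 7.26, 5.07 and 6.39 in wild type and 7.81, 7.44, 7.68 and 6.28 in knockout (0.79, SE 0.55; limma adjusted p = 0.584). On this probe Oasl1 was above background on 3 wild type and 4 knockout arrays. Its second probe gave 0.38 (SE 0.40), and on both probes wild type replicate 3 was the lowest array. Oas1g had -0.25 (SE 0.22) on the probe that was detected, and Oasl2 had -0.04 (SE 0.23). Oas1a, a close relative of Oas1g, was not detected.

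The IFIT proteins, which bind foreign RNA, were the role group with the most values above 0, 4 of 5 probes, with a median log2 change of 0.14. On every one of the 5 probes, the highest of the 8 arrays was knockout replicate 1. Ifit3 had 9.17, 9.12, 8.96 and 9.13 in wild type and 9.49, 8.92, 8.93 and 8.68 in knockout on its brightest probe. The knockout arrays thus lay on both sides of the wild type arrays (log2 change -0.10, SE 0.16). The dimmer Ifit3 probes gave 0.14 (SE 0.23) and 0.18 (SE 0.26), and they were detected on 7 and 6 of the 8 arrays. Ifit2 gave 0.36 (SE 0.28) and 0.04 (SE 0.17), and Ifit1 was not detected on any array.

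Bst2 was the member with the smallest p among those with a value above 0. It encodes tetherin, which holds budding virus particles at the cell surface, and it had 10.17, 9.98, 10.48 and 9.83 in wild type and 11.11, 10.35, 10.58 and 10.37 in knockout. Only wild type replicate 3 lay within the knockout range. The log2 change was 0.49 (SE 0.18; 95% interval 0.09 to 0.89; unadjusted p = 0.0216; limma adjusted p = 0.284), and 0.32 without knockout replicate 1. The antiviral enzyme viperin (Rsad2) had a value in the other direction, -0.33 (SE 0.20), and the antiviral GTPase Mx2 had -0.12 (SE 0.19), neither past the threshold. Ifi27 had the narrowest interval of the list on one probe, 0.02 (SE 0.10; 95% interval -0.20 to 0.24), and 0.10 (SE 0.10) on its other. Mx1 was detected on 1 array, and Xaf1 on none.

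**Figure D3:**
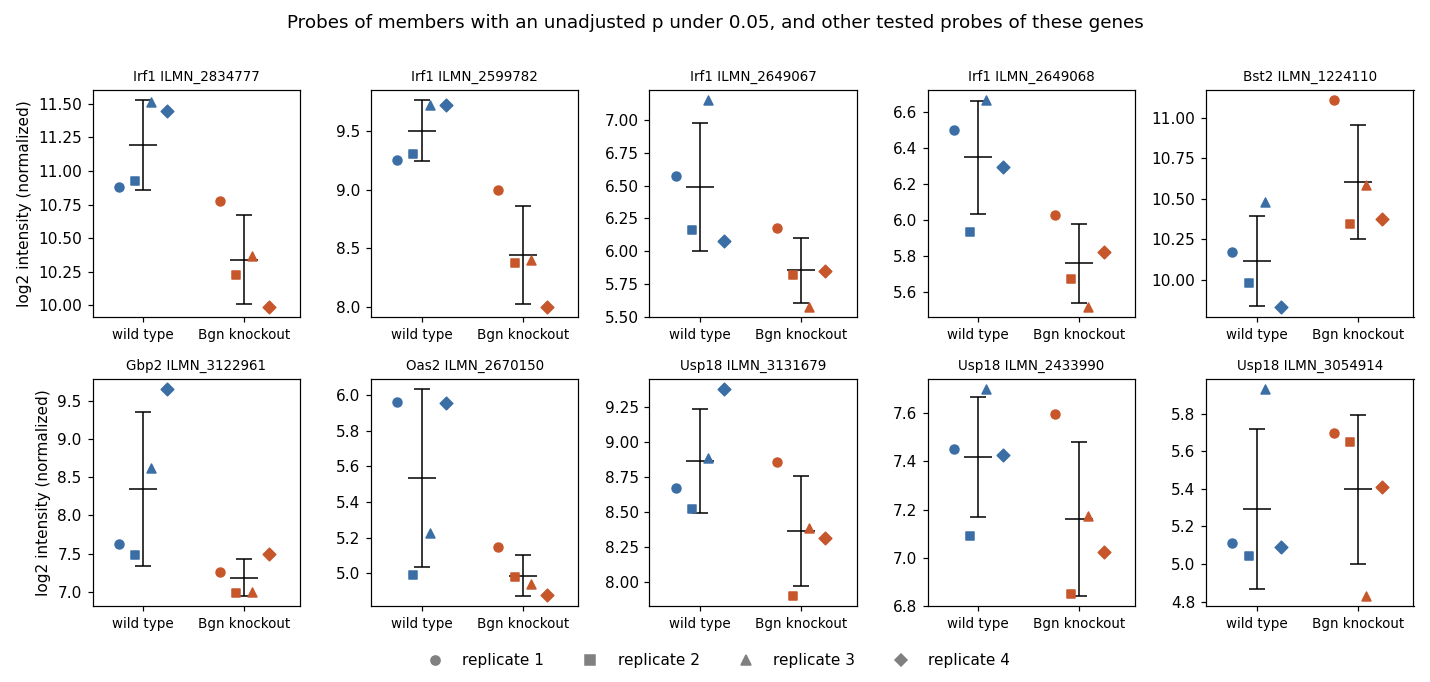
Normalized log2 intensity of each array for the 5 genes with a probe at an unadjusted p under 0.05 (all tested probes of Irf1, Bst2, Gbp2, Oas2 and Usp18); black bars give the group mean ± SD (n = 4), marker shapes the replicate, and the y axes differ. The groups separate on the 2 brightest Irf1 probes, and wild type replicates 3 and 4 lift the Gbp2 mean.

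The RNA sensors and the immunoproteasome showed no shift that the arrays could resolve. Ddx58, which encodes the viral RNA sensor RIG-I, had -0.04 (SE 0.25; 95% interval -0.58 to 0.51), and Ifih1, which encodes MDA5, was not detected. Psmb8 and Psmb9 encode catalytic subunits that interferon exchanges into the proteasome, and they had -0.26 (SE 0.21) and -0.01 (SE 0.19). Knockout replicate 4 had 8.78 for Psmb9 against 9.35 to 9.75 on the other 7 arrays. Beside them, 0 of 10 tested probes of 7 other catalytic-core (beta) subunits passed in limma and 2 were lower at an unadjusted p under 0.05, against 7.00% of all tested probes. A Psmb2 probe had -0.33 (SE 0.080; limma adjusted p = 0.0819), with -0.09 (SE 0.081) on the second, and Psmb5 had -0.54 (SE 0.19).

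Arrays of 1 genotype differed in their member values. The median deviation of the 39 probes from their own mean over the 8 arrays was 0.12, -0.04, 0.11 and 0.14 on wild type replicates 1 to 4 and 0.24, -0.28, -0.11 and -0.30 on knockout replicates 1 to 4. Knockout replicate 1 was thus above every wild type array while the other 3 knockout arrays were below them all. Knockout replicate 1 held the highest value of 14 of the 39 probes (35.9%, against 8.76% of all tested probes), and knockout replicates 2, 3 and 4 held the highest value of none. Knockout replicate 4 held the lowest value of 13 (33.3%, against 15.1% of all tested probes). The role groups did not all follow these medians: on knockout replicate 1 the transcription factors had a median deviation of -0.0042, and on wild type replicate 1 the OAS family had 0.51 and the immunity-related GTPases -0.45. Over all tested probes the median deviation of every array lay between -0.018 and 0.025. Knockout replicate 1 also had the third highest level of muscle markers, and the part of muscle RNA in this pattern was not tested.

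**Figure D4:**
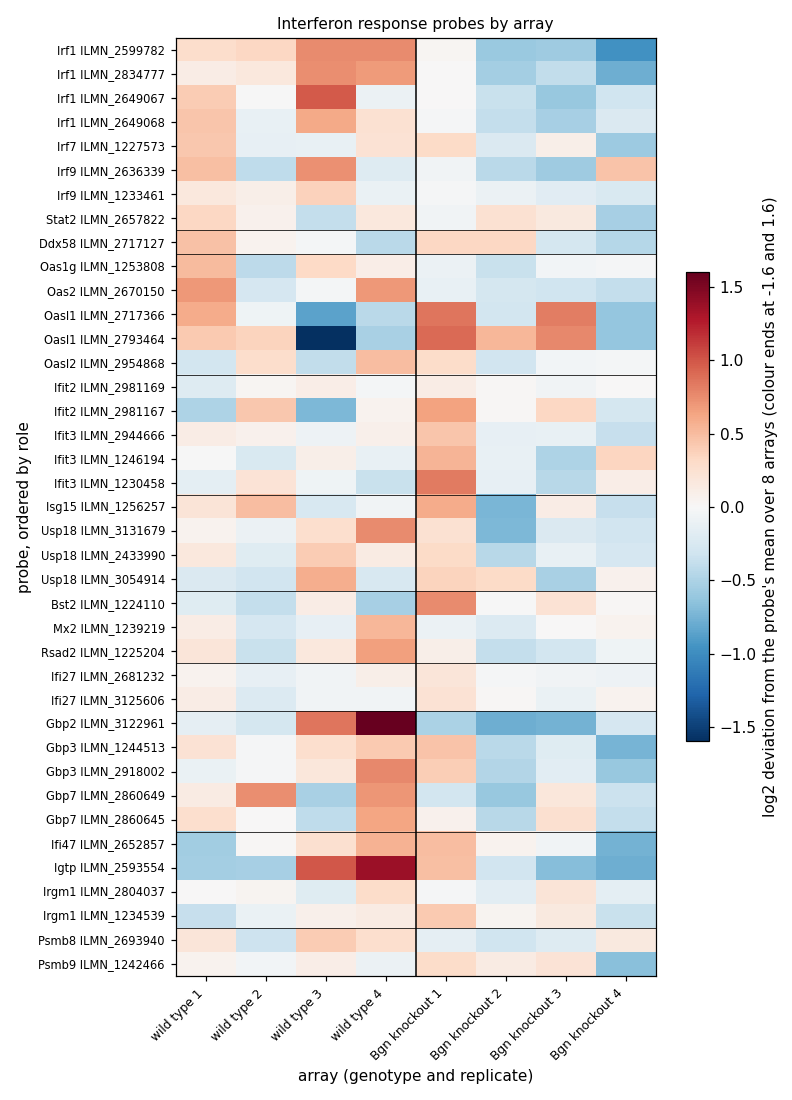
Deviation of each tested member probe (rows, ordered by role) from its own mean over the 8 arrays (columns), on the log2 scale, red above and blue below. Knockout replicate 1 is mostly red (28 of 39 probes above their mean), knockout replicates 2 to 4 are mostly blue (10, 13 and 9 above), and Gbp2 and Igtp are red on wild type replicates 3 and 4.

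The separation of the groups depended on which array was left out. Without knockout replicate 1, the groups did not overlap for 8 of 38 tested member probes, all lower (4 of Irf1, 2 of Gbp3, 1 of Ifit3 and 1 of Usp18), against 5.98% of all tested probes lower, and the median member log2 change was -0.26. Without wild type replicate 2 it was also 8 of 38, all lower, against 6.41%: 3 probes of Irf1 and 1 each of Gbp2, Oas1g, Oas2, Psmb8 and Rsad2. The probes shared by these 2 sets were all of Irf1. Without knockout replicate 4 it was 5 of 39: Gbp2 and 2 Irf1 probes were lower, against 7.29%, and Oasl1 and Psmb9 were higher, against 6.67%. Without wild type replicate 4 and knockout replicate 2 it was 3 of 36, all lower (2 probes of Irf1 and 1 of Irf9), against 6.73%. Without wild type replicate 1, knockout replicate 2 or knockout replicate 3, only the 2 brightest Irf1 probes separated. Bst2, higher, joined them without wild type replicate 3, and Irf9, lower, without wild type replicate 4. For these settings the share of all tested probes was not computed. In the settings above it was 5.98% to 7.29% lower. Counts of 2 or 3 among 37 to 39 member probes lie near such shares. With fewer arrays, groups separate more easily.

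Genes upstream of the list were measured as a comparison. Over all tested probes, 7.00% were lower and 6.33% higher at an unadjusted p under 0.05, and 4.40% were lower with groups that did not overlap. Among 18 interferon genes, 16 had probes, and those of Ifnb1 and Ifng, which encode interferon-beta and interferon-gamma, were not detected on any array. Probes of Ifna1 and Ifna6 were detected on all 8 arrays (log2 change 0.14, SE 0.21, and 0.20, SE 0.16), while a second Ifna6 probe was detected on none. Of 20 tested probes of receptors and JAK-STAT genes, 0 passed in limma, and 3 were lower and 0 higher at an unadjusted p under 0.05, with a median log2 change of -0.13. The 3 were Socs3, a feedback inhibitor (-1.27, SE 0.46; limma adjusted p = 0.29), and 1 of 3 probes each of Tyk2 (-0.33, SE 0.14) and Stat3 (-0.36, SE 0.15). Of 17 tested probes of sensors, adaptors, kinases and other interferon regulatory factors, 0 passed in limma and 2 were lower at an unadjusted p under 0.05, with a median of -0.13. Mavs, the adaptor of RIG-I and MDA5, had -0.30 (SE 0.11; limma adjusted p = 0.249), Irf8 had -0.52 (SE 0.21), and both had groups that did not overlap. Irf3, the third by p-value, had -0.22 (SE 0.12) on its probe with the smallest p.

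Further interferon targets outside the list also gave no call. Of 29 tested probes of such targets, 0 passed in limma, with 1 lower and 2 higher at an unadjusted p under 0.05 and a median log2 change of -0.11. Over all tested probes 7.00% were lower and 6.33% higher at this p, and 4.40% were lower with groups that did not overlap. Gbp2b, a relative of Gbp2, had 5.99, 5.41, 6.56 and 6.47 in wild type and 7.56, 6.82, 7.19 and 6.401 in knockout (0.89, SE 0.30; limma adjusted p = 0.223). Its value was thus above 0 where that of Gbp2 was below, and the groups overlapped through knockout replicate 4. Ifitm2 had 0.26 (SE 0.11) and Adar had -0.45 (SE 0.20) on the probe with the smallest p. Of 18 tested probes of class I presentation genes, 0 passed in limma, with 2 lower and 1 higher at an unadjusted p under 0.05. Nlrc5, the transactivator of class I genes, had 7.14, 7.27, 7.80 and 7.71 in wild type and 6.65, 6.78, 6.88 and 6.51 in knockout. These groups did not overlap (-0.77, SE 0.19; limma adjusted p = 0.0819). H2-T23 had -0.23 (SE 0.090) on 1 of 2 probes. Erap1, which trims peptides, was detected on 0 wild type and 4 knockout arrays on its tested probe and did not pass (limma adjusted p = 0.0925). That probe met the filter only through the knockout arrays, so no fold is read from it. The other Erap1 probe was detected on 0 arrays.

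Markers of other cell types had the following levels, and their part in the values above was not tested. For Kupffer cells and macrophages, 10 of 11 tested probes were below 0, against 49.1% of all tested probes, with 0 past the threshold in limma. At an unadjusted p under 0.05, 3 were lower, all of Clec4f or Cd163, against 7.00% of all tested probes. The summed level of the Kupffer cell and macrophage markers was 3698 to 5127 in wild type and 2838 to 4360 in knockout, lowest on knockout replicate 2, and Cd5l was not detected. For sinusoidal endothelium, 4 of 6 tested probes were below 0 (summed level 1194 to 1724 and 991 to 1504), with Lyve1 at -1.0 (SE 0.26; limma adjusted p = 0.104), and Kdr was not detected. For T and NK cells, 3 of 9 genes were tested, and Cd4, Cd8a, Gzma and Ncr1 were not detected on any array (summed level 271 to 448 and 281 to 353). For B cells, Cd79a, Jchain and Ms4a1 were not detected (122 to 133 and 126 to 155). For neutrophils and monocytes, Ccr2 and Cxcr2 were not detected (154 to 307 and 201 to 290). For plasmacytoid dendritic cells, Tcf4 and Bst2 itself were the tested markers, and Ccr9 and Klk1 were not detected (2090 to 2380 and 2316 to 3384). This sum counts the member Bst2 again, so it is no separate measure of these cells. Tcf4 had a log2 change of 0.02 (SE 0.14), and no probe of Siglech or Ly6d was detected on more than 1 array.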

How the data were processed

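The authors deposited 2 tables. Per the file headers, one lists for every probe and array a mean bead intensity and a detection p-value. Its intensities are linear and neither background-subtracted (the lowest is 109) nor normalized. The other is the authors' normalized intensity. The sources used here give no method for it or for the detection p-value; lumi 2.10.0 and R 2.15.0 appear in the submitters' processing notes. Columns were matched to samples through the labels' descriptions, and no batch is named there.

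Starting from the unnormalized intensities, limma 3.58.1 (R 4.3.3) applied normexp background correction fitted from the detection p-values (offset 16), quantile normalization and log2. Knockout minus wild type was fitted with lmFit and with eBayes using a robust, trended variance and no covariate. Benjamini-Hochberg adjustment ran over all 11494 tested probes. The fit was tested on simulated data with independent noise on each array, which holds no shift shared by probes of an array. It called 12 of 67 log2 changes of 0.5, 44 of 67 of 1 and 66 of 66 of 2. Of its 130 calls, 8 were false. The platform table named 23978 of 25697 probes with 1 symbol and left 1719 unnamed; 23962 matched the GRCm38.p6 gene table, with 0 symbols changed. Summed marker levels add the background-corrected linear intensity of each gene's brightest probe.

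The members, gene lists, tests and alternatives were chosen with earlier results of these data known. Members with an unadjusted p under 0.05 are given on every array, but the dimmer tested Irf1 probes are given as ranges. Others are given by role, and those shown on every array, or named beyond 2 a role, were chosen after their values were seen. Genes outside the list are those with the smallest p, up to 3 a list. Settings were varied one at a time in background correction, scaling, filter, variance model, array weighting, replicate blocking and the arrays included. Plots used matplotlib 3.10.9 (Python 3.11.15). An item withheld for evaluation is not reported here.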

Additional observations from a re-analysis of the deposited data

Results flagged for a closer look

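Dixon's ratio (the distance from an extreme array to its neighbour over the whole range) was computed for each tested member probe within each genotype. Of 78 groups of 4 arrays, 2 exceeded the critical value, against 3.9 that chance gives at 1 in 20. Psmb9 had a log2 intensity of 8.78 on Bgn knockout replicate 4, where the other knockout arrays had 9.59 to 9.75. Usp18 probe ILMN_3054914, the dimmest of its 3, had 5.93 on wild type replicate 3, where the other wild type arrays had 5.04 to 5.11.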

How the results depend on the processing

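Of 714 refits of single member probes (39 probes under the alternative settings), 670 kept their direction and their side of the threshold, 32 changed sign, and 24 of the 39 probes never changed sign. Only Irf1 probes ever passed. Among all tested probes, 127 were called, against 197 with array weights, 64 with the replicate block and 48 without the pair of arrays highest in muscle markers (wild type 4 and knockout 2); leaving out 1 array at a time gave 59 to 118. The called member probes numbered 2 with median scaling, and 0 under plain eBayes (no trend, not robust), array weights, the replicate block and the removal of that pair. Leaving out 1 array at a time gave 0 to 2 called member probes, beside the 59 to 118 among all tested probes. It gave 2 to 8 member probes whose groups did not overlap. Where the share of all tested probes was computed for such settings, it was 5.98% to 7.29% lower. The number called among all tested probes is not given here for median scaling and plain eBayes. The causes were not tested.

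For Irf1 ILMN_2599782 the limma adjusted p was 0.0272 without background correction, 0.0430 with median scaling, 0.029 with the authors' values, 0.0682 with plain eBayes, 0.0558 with array weights and 0.136 with the replicate block, and the log2 change stayed below 0 in every setting run. Deviations of same-numbered arrays correlated between -0.298 and 0.0571, which cannot settle whether replicate numbers pair the samples. The median member change, -0.19, was -0.19 to -0.071 in the settings with all arrays and -0.26 to -0.083 when 1 array was left out.

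Signs reversed for 15 probes in at least 1 setting, among them Gbp7 ILMN_2860645 (-0.25 as reported) and Isg15 (-0.19). With median scaling the Ifi27 probes had -0.015 and -0.062. With cyclic loess Ddx58 had 8.8e-05. With array weights Ddx58 had 0.0067, Ifi47 0.15, Oasl2 0.014 and Psmb9 0.095. When arrays were left out, singly or as that pair, the log2 change ran from -0.042 to 0.067 for Ifi27 ILMN_2681232, -0.30 to 0.12 for Ddx58, -0.43 to 0.027 for Gbp7 ILMN_2860645 and -0.35 to 0.093 for Ifi47. It ran from -0.017 to 0.088 for Ifit2 ILMN_2981169, -0.066 to 0.36 for Ifit3 ILMN_1230458, -0.015 to 0.33 for Ifit3 ILMN_1246194 and -0.26 to 0.013 for Ifit3 ILMN_2944666. It ran from -0.15 to 0.059 for Irgm1 ILMN_2804037, -0.42 to 0.016 for Isg15, -0.23 to 0.089 for Mx2, -0.18 to 0.21 for Oasl2, -0.11 to 0.21 for Psmb9 and -0.24 to 0.063 for Stat2.

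With 4 arrays a genotype, the SE of a member probe was 0.10 to 0.55 on the log2 scale. Tested probes of Oas2, Gbp7 (ILMN_2860649), Usp18 (the dimmest), Oasl1 (ILMN_2793464) and Ifit3 (ILMN_1246194 and ILMN_1230458) were detected on only some arrays.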

Other observations

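Genes outside the list were set beside Gbp2 and Igtp by array, a choice made after their values were seen. Cxcl9, a chemokine that interferon-gamma raises, had log2 intensities of 8.93, 8.67, 10.27 and 11.23 on wild type replicates 1 to 4 and 8.96, 8.31, 8.22 and 8.17 on knockout replicates 1 to 4 (log2 change -1.36, SE 0.58; limma adjusted p = 0.382). Socs3 had 6.86, 7.32, 8.81 and 8.33 and then 6.15, 6.45, 6.26 and 7.41. In each of these genes wild type replicates 3 and 4 were the 2 highest arrays, as they were for Gbp2, Igtp and the 2 brightest Irf1 probes. For Irf8, a factor of myeloid cells, they were the highest as well (6.33 and 6.42, against 5.46 to 5.75 on the other arrays). The share of all tested probes with these 2 arrays highest was not computed. Wild type replicate 4 alone was the highest array for 19.9% of all tested probes. Other members differed: on wild type replicate 3 both Gbp7 probes, both Oasl1 probes and Irgm1 ILMN_2804037 lay below their mean over the 8 arrays. The muscle markers were high on wild type replicate 4 but not on wild type replicate 3. The part of muscle RNA in the values of these genes was not tested.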
